A study of Bubalus bubalis with 6 samples.

Results

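The 6 leukocyte miRNAs described here, miR-223, miR-142-5p, miR-150, miR-155, miR-146a and miR-146b, were chosen by name among the 273 bovine-named (bta) miRNAs of a small RNA table from buffalo saliva. The rule took miR-223, miR-142, miR-150, miR-155, miR-146a and miR-146b with or without an arm suffix, and used no measured value. The saliva was the cell-free fraction from 3 healthy, wild-type Murrah water buffaloes (Bubalus bubalis), and each animal gave 1 library in estrus, the phase of sexual receptivity, and 1 in diestrus, the luteal phase, so that there were 3 libraries per phase. The labels name no treatment, and the animals' age was not given in the sources used here.

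miRNAs are short RNAs that guide silencing complexes to messenger RNAs and lower their translation and stability, and those in cell-free fluid come from vesicles, protein complexes and broken cells. miR-223 is most abundant in neutrophils and other myeloid cells, where it restrains granulocyte activation. miR-142 is made across blood cell lineages from a hairpin that yields a 5p and a 3p arm, and only the 5p arm was analysed here. miR-150 marks mature lymphocytes. miR-155 is induced in activated lymphocytes and macrophages, and miR-146a and miR-146b are induced by NF-κB and dampen Toll-like receptor signalling. Saliva normally contains neutrophils that cross the gingiva, together with shed oral epithelium.

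Depth here is the number of miRNA reads recovered from the table, not of all reads sequenced. It was low, and it differed with phase. Reads recovered from the table numbered 6749 to 27036 at estrus and 3015 to 5548 at diestrus. A single non-leukocyte miRNA, miR-1246, took 55.0% to 76.2% of the diestrus reads and 1.20% to 20.0% of the estrus reads, so every other share of a library moves with it. Estrus replicate 3 stood apart from the rest, with Spearman correlations of -0.18 to 0.17 to the other 5 libraries across 58 miRNAs. Its sample description holds the words Repl and Saliva, which those of the other 5 lack and which the labels do not explain. Estrus replicate 2 was most like diestrus replicate 2 of the same animal (0.92). The fitted changes are therefore also given without each of these 3 libraries.

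miR-223 carried nearly all of the leukocyte miRNA signal. It had 1086 of the reads over the 6 libraries, against 53 for miR-142-5p, 20 for miR-155, 16 for miR-150, 6 for miR-146b and 5 for miR-146a. Its mean normalized count ranked 8 among all 273 miRNAs, and that of miR-142-5p ranked 40. Within single libraries miR-223 made up 92.5% to 97.9% of the reads of the 6 miRNAs at estrus and 86.7% to 89.1% at diestrus. In each library miR-223 exceeded miR-142-5p, and in the 5 libraries other than estrus replicate 3 miR-142-5p exceeded the other 4. In estrus replicate 3, miR-142-5p was the lowest of the 6, with 1 read. These orders compare reads, which for mature miRNAs of nearly equal length are not affected by length, although adapter ligation can favour some sequences.

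miR-223, the myeloid miRNA, was present in each library. Its normalized counts, which are reads divided by a size factor per library, were 37.4, 121 and 104 in estrus replicates 1, 2 and 3. They were 279, 138 and 282 in diestrus replicates 1, 2 and 3. The 3 estrus values lay below the 3 diestrus values, but only narrowly so in animal 2, whose samples differed 1.14-fold, against 7.46-fold in animal 1 and 2.71-fold in animal 3. The phase means were 87.5 ± 44.2 and 233 ± 82.0 (SD, n = 3 each), a 2.67-fold difference.

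That difference did not pass the test. On the log2(normalized count + 1) scale the change of miR-223 from diestrus to estrus was -1.50 with a standard error of 1.48, and its 95% interval ran from -4.41 to 1.42 (limma, adjusted p = 0.626). That standard error comes from the trend of variance with mean level over all miRNAs tested, not from the spread of miR-223 itself. Without estrus replicate 3 the change was -1.70 (limma, adjusted p = 0.471), and without estrus replicate 1 it was -0.98 (limma, adjusted p = 0.765). It was -1.81 without estrus replicate 2 and -1.83 without diestrus replicate 2 (limma, adjusted p = 0.371 and 0.558). The cell-free design adds a limit of its own, since fewer leukocytes and less RNA released per leukocyte cannot be told apart. The part of other sources and of depth was not tested.

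**Figure D1:**
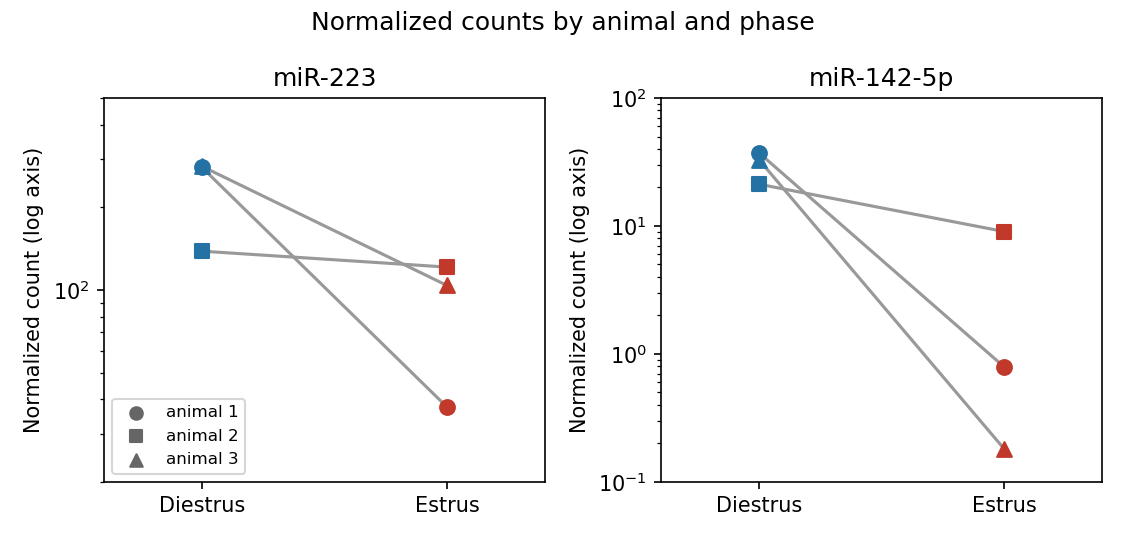
Normalized counts (log axes, with a different range in each panel) of miR-223 and miR-142-5p at diestrus (blue) and estrus (red), with a line joining the 2 samples of each animal. All 3 lines fall toward estrus in both panels, and animal 2 has the flattest line in each.

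As a share of its library, miR-223 did not separate the phases. It made up 0.563%, 0.993% and 2.13% of the reads in estrus replicates 1, 2 and 3, with 95% Wilson intervals of 0.461 to 0.688, 0.783 to 1.26 and 1.97 to 2.31. At diestrus the shares were 3.25%, 1.53% and 3.24%, with intervals of 2.67 to 3.95, 1.24 to 1.89 and 2.79 to 3.77. The phases overlapped, because estrus replicate 3 exceeded diestrus replicate 2. The estrus share averaged 1.23% ± 0.812, against 2.68% ± 0.990 for diestrus (SD, n = 3 each; exact two-sided permutation test, p = 0.2).

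With miR-1246 out of the denominator, which raises the diestrus share of every other miRNA more than its estrus share, the phases did not overlap. miR-223 then held 0.570%, 1.24% and 2.17% of the remaining reads in estrus replicates 1, 2 and 3. At diestrus it held 13.7%, 3.40% and 12.3%. On this denominator the highest estrus share was below the lowest diestrus share (exact two-sided permutation test, p = 0.1, the smallest that 3 against 3 can give). The same held for 10 of the 57 tested miRNAs other than miR-1246, or 17.5%, so the separation was shared with 9 others, miR-142-5p among them. By normalized count miR-223 ranked 2, 9 and 3 in diestrus replicates 1, 2 and 3 and 20, 9 and 13 in the estrus replicates, so that its rank was the same in both samples of animal 2. All intervals and limits on read shares given here, those above included, cover counting error only, since whether molecular indices were collapsed is not given in the sources used here.

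miR-142-5p, the pan-leukocyte miRNA, was lower at estrus in each animal and rested on few reads. It had 2, 5 and 1 reads in estrus replicates 1, 2 and 3, and 13, 13 and 19 in diestrus replicates 1, 2 and 3. The estrus libraries had fewer reads of it although each was deeper than any diestrus library. At the mean diestrus share of 0.347%, estrus replicates 1, 2 and 3 would have held 58.6, 23.4 and 93.8 reads.

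On the normalized scale miR-142-5p was at 0.788, 9.04 and 0.180 in estrus replicates 1, 2 and 3. In diestrus replicates 1, 2 and 3 it was at 37.0, 21.2 and 32.7. The phases did not overlap, and estrus replicate 2 was closest to the diestrus range. It averaged 3.34 ± 4.95 in estrus libraries and 30.3 ± 8.19 in diestrus libraries (SD, n = 3 each). With an estrus mean under the minimum of 5 set for testing, miR-142-5p was tested only by way of its diestrus level, which fixes the direction it could take. The log2 change came to -3.46 with a standard error of 1.51 and a 95% interval of -6.43 to -0.49, with an unadjusted p of 0.0225 (limma, adjusted p = 0.258). Here too the standard error comes from the variance trend, not from the spread of miR-142-5p itself. Its change was the 2nd lowest of the 58 miRNAs tested, after that of miR-1246.

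The call on miR-142-5p depended on 1 library. Without estrus replicate 2 its change was -4.39 and passed the threshold (limma, adjusted p = 0.0427), in a fit that called 6 of the 58, or 10.3%. The estrus side of that fit is 0.788 and 0.180, so this call too rests on a miRNA admitted by its diestrus level. Without estrus replicate 3 it was -2.85 and did not (limma, adjusted p = 0.471). Without diestrus replicate 2 it was -3.69 (limma, adjusted p = 0.409). Over all alternatives the adjusted p ranged from 0.0427 to 0.901 (limma, edgeR and DESeq2).

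As a share of all reads, miR-142-5p stood at 0.0119%, 0.0741% and 0.00370% in estrus replicates 1, 2 and 3. At diestrus it stood at 0.431%, 0.234% and 0.376%. The highest estrus value, in replicate 2, had a 95% Wilson interval of 0.0316 to 0.173, which overlapped that of the lowest diestrus value, 0.137 to 0.4005 in replicate 2. Both belong to animal 2. The means were 0.0299% ± 0.0385 and 0.347% ± 0.102 (SD, n = 3 each; exact two-sided permutation test, p = 0.1, the smallest possible). Leaving miR-1246 out of the denominator gave 0.0361% ± 0.0491 and 1.25% ± 0.663, again without overlap, as for the 17.5% given above.

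**Figure D2:**
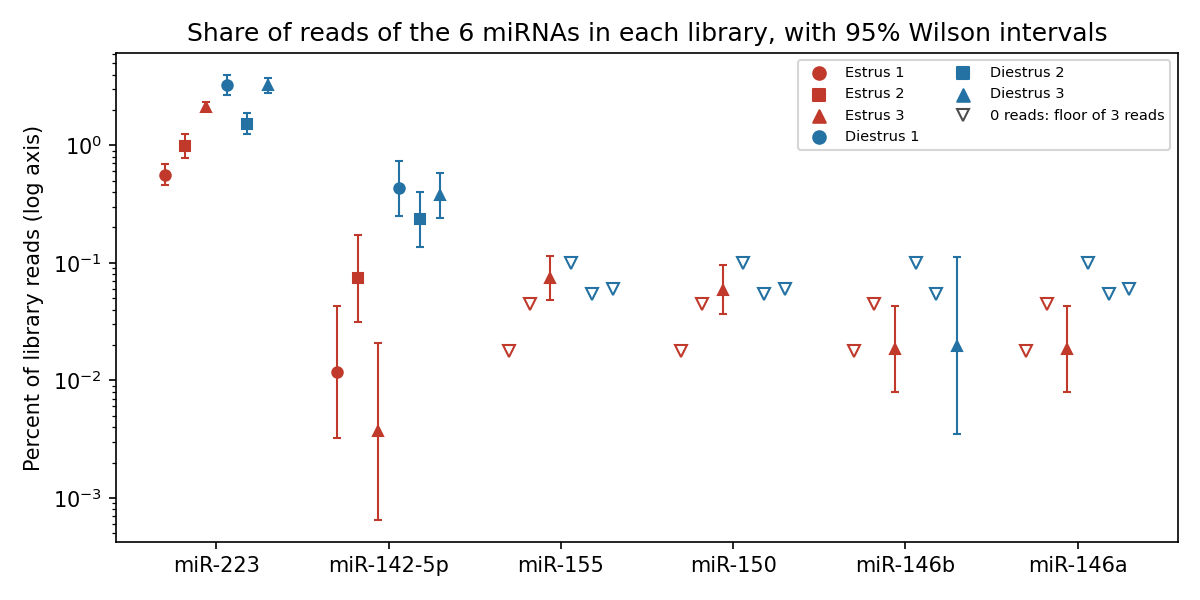
Percent of each library's reads (log axis) taken by the 6 miRNAs at estrus (red) and diestrus (blue), with 95% Wilson intervals for counting error; open triangles mark libraries with 0 reads, placed at the floor of 3 reads. miR-142-5p separates the phases, miR-223 overlaps, and the other 4 have reads in estrus replicate 3, with 1 further read of miR-146b in diestrus replicate 3.

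Beside miR-223, miR-142-5p was scarcer at estrus than at diestrus. The ratio of these 2 within a library does not depend on size factors or on miR-1246. miR-142-5p made up 11.7%, 13.3% and 10.4% of the reads of the pair in diestrus replicates 1, 2 and 3, with exact 95% intervals of 6.39 to 19.2, 7.26 to 21.6 and 6.37 to 15.7. The 3 diestrus libraries thus agreed within counting error. At estrus miR-142-5p made up 2.06% of the pair in replicate 1, 6.94% in replicate 2 and 0.173% in replicate 3, with intervals of 0.251 to 7.25, 2.29 to 15.5 and 0.00438 to 0.960. The estrus values were all below the diestrus values, and the interval of replicate 3 lay below every diestrus interval. The interval of replicate 1 overlapped those of diestrus replicates 1 and 3, and the interval of replicate 2 overlapped all 3. Put as a ratio, there were 7.54, 6.54 and 8.63 reads of miR-223 per read of miR-142-5p in diestrus replicates 1, 2 and 3, and 47.5, 13.4 and 577 at estrus. The estrus ratios rest on 1 to 5 reads of miR-142-5p. The ratio was looked at with the levels of both miRNAs known, and no test was made of it.

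**Figure D3:**
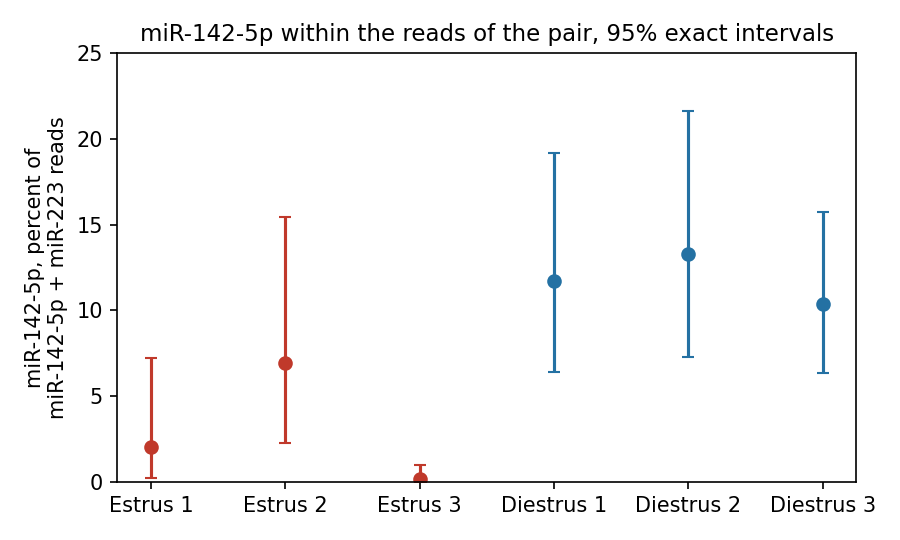
Reads of miR-142-5p as a percent of the reads of miR-142-5p and miR-223 together, for each library at estrus (red) and diestrus (blue), with exact 95% intervals. The diestrus libraries sit between 10.4% and 13.3%, above the estrus libraries at 0.173% to 6.94%.

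The lymphocyte and NF-κB-induced miRNAs were found almost entirely in estrus replicate 3. miR-155 had 20 reads there and miR-150 had 16, and both had 0 reads in the other 5 libraries. miR-146a had 5 reads in estrus replicate 3 and 0 elsewhere. miR-146b had 5 in the same library and 1 in diestrus replicate 3. Each of the 4 had a mean normalized count between 0.150 and 0.5997, below the minimum of 5 set for testing, so none was tested and no fold change is given.

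The zeros of the other libraries rest on different depths. miR-155 was 0.0740% of estrus replicate 3 (95% Wilson interval 0.0479 to 0.114) and miR-150 was 0.0592% (0.0364 to 0.0961). A count of 0 allows a share of up to 0.0178% in estrus replicate 1 (3 reads), or 0.0228% by the Wilson upper bound, and both are below both intervals. At the shares of replicate 3, that library would have held 12.5 reads of miR-155 and 9.99 of miR-150. In estrus replicate 2, where 0 reads allow up to 0.0445%, or 0.0569% by the Wilson upper bound, 4.99 reads of miR-155 and 3.99 of miR-150 would have been held. In diestrus replicates 1, 2 and 3, where 0 reads allow up to 0.0995%, 0.0541% and 0.0593%, the same shares would have given 2.23, 4.10 and 3.74 reads of miR-155. For miR-150 they would have given 1.78, 3.28 and 2.99. No single diestrus library was therefore deep enough to place its share below the interval of estrus replicate 3. miR-146a and miR-146b were each 0.0185% of estrus replicate 3 (0.00790 to 0.0433), a share that comes to 3.12 reads in estrus replicate 1, close to the floor.

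Of the 6 miRNAs, 2 had enough signal to be tested between phases, and 0 passed an adjusted p below 0.05. Among all 58 tested the count was also 0, or 0% (limma, Benjamini-Hochberg). At an unadjusted p below 0.05 the count was 1 of 2, miR-142-5p, against 8 of 58, or 13.8%. That call was lost with edgeR (unadjusted p = 0.0521), with CPM, with a pseudocount of 10 and in 3 of the 6 fits that left out 1 sample. edgeR called 0 of 58 at the adjusted threshold and 10 at the unadjusted one, and DESeq2, which gave a p for 48 of them, called 0 and 8. miR-223 was lower at estrus with no overlap between phases, which held for 3 of 58, or 5.17%. Lower values at estrus in all 3 animals were seen for miR-223, and for 6 of 58, or 10.3%. A fitted change below 0 was seen for miR-223, and for 16 of 58, or 27.6%. miR-142-5p also met these 3 conditions, but it was admitted by its diestrus level, so its direction is not counted as support. Its unadjusted call has the same limit. The 58 include other miRNAs admitted by the level of 1 phase only. Both leukocyte miRNAs were taken up with earlier results of these data known, so the counts describe them and do not test them.

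**Figure D4:**
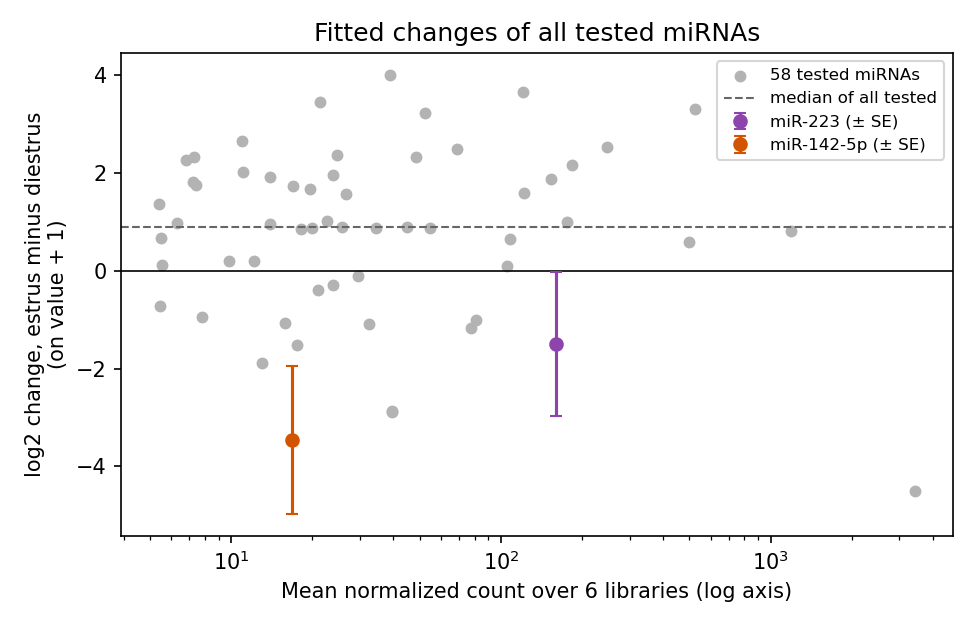
Fitted log2 change from diestrus to estrus of the 58 tested miRNAs against mean normalized count (log axis); error bars on miR-223 (purple) and miR-142-5p (orange) are standard errors, and the dashed line is the median of all 58 at 0.90. Both lie below 0 and below the median, but the direction of miR-142-5p, admitted by its diestrus level, is not counted as support. The point at the lower right is miR-1246.

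The changes were larger when set against the other miRNAs. The median change of the 58 was 0.90, and relative to it miR-223 changed by -2.39 and miR-142-5p by -4.36. Dividing by column totals that leave out miR-1246 moved the median to -0.19 and the change of miR-223 to -2.82 (limma, adjusted p = 0.458), but the change relative to the median was then -2.63. For miR-142-5p the same scaling gave -4.66 (limma, adjusted p = 0.103), or -4.48 relative to the median. On recovered reads the changes relative to the median were -3.33 and -5.52 with edgeR, and -3.04 and -5.02 with DESeq2. They were smaller in other fits. Without the filter the median was 0.26, and the changes relative to it were -1.76 for miR-223 and -3.72 for miR-142-5p. With a pseudocount of 10 they were -2.07 and -2.33.

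**Figure D5:**
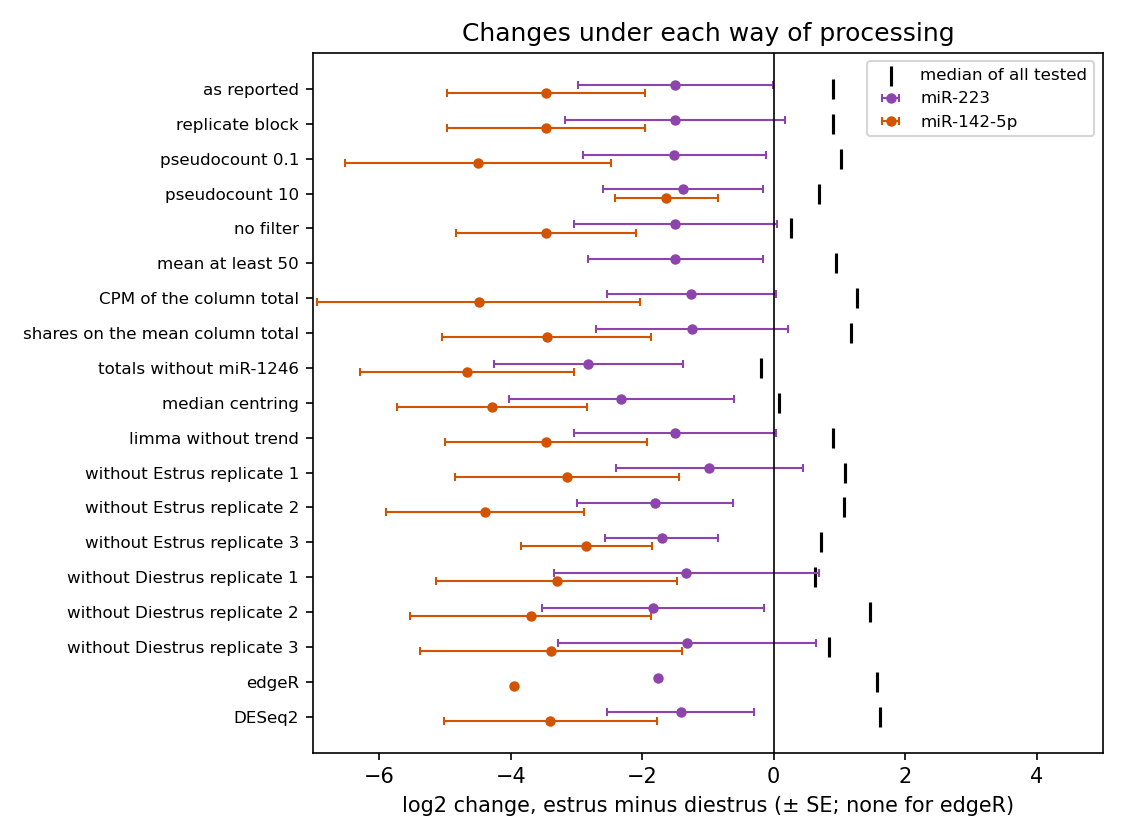
log2 change from diestrus to estrus of miR-223 (purple) and miR-142-5p (orange) under each way of processing, with standard errors where the tool gives them, and the median change of all tested miRNAs (black bars). Both stay below 0 and below that median in every fit drawn, from -2.82 to -0.98 for miR-223 and from -4.66 to -1.63 for miR-142-5p. The sign of miR-142-5p, admitted by its diestrus level, is not counted as support.

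The profile of miR-223 over the 6 libraries was compared with those of the other 57 tested miRNAs, among which miR-142-5p was the only other leukocyte miRNA. Likeness was the root mean square difference between log2 profiles, each centred on its own mean. The closest was miR-320a, a widely expressed miRNA, at 0.32, where the median of all was 2.13. It had 7.88, 28.9 and 27.3 normalized counts in estrus replicates 1, 2 and 3 and 65.5, 27.7 and 37.8 in diestrus replicates 1, 2 and 3. miR-107 and miR-103, which have nearly the same sequence, followed at 0.43 and 0.46. Their reads were equal in 4 of the 6 libraries and 19 against 113 in estrus replicate 3, so the split between them is uncertain. miR-15b came 4th, at 0.55. The epithelial miR-205 came 5th, at 0.90. miR-142-5p, at 1.31, was 11th. None of these 5 passed the test between phases (limma, adjusted p = 0.626 to 0.918).

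Other miRNAs of blood cells and immune responses had most of their reads in estrus replicate 3. Of 12 such names 8 were measured, 1 was tested, and 0 passed. That 1, miR-29a, had 10, 3 and 79 reads in estrus replicates 1, 2 and 3 and 2, 2 and 0 in the diestrus ones; its change on the log2 scale was 1.36 (limma, adjusted p = 0.728). miR-181a, which tunes lymphocyte receptor signalling, had 43 reads in estrus replicate 3 and 0 in the other 5 libraries. miR-342 had 45 reads in that library and at most 1 in any other, and miR-29c had 30 there and at most 3 in any other. The summed share of the 8 was 0.0889% to 0.792% at estrus and 0.0361% to 0.133% at diestrus. miR-29a was tested only by way of its estrus level, so its direction is not counted.

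The summed epithelial and erythrocyte markers also had their highest share in estrus replicate 3. Of 9 epithelial names 8 were measured, and their summed share was 0.163% to 9.47% at estrus and 0.252% to 0.356% at diestrus. The epithelial miR-200c had 78, 1 and 1093 reads in estrus replicates 1, 2 and 3 and 0, 2 and 0 in the diestrus replicates, a log2 change of 4.0 (limma, adjusted p = 0.258). miR-375 had 25, 0 and 659 reads at estrus and 0 in each diestrus library. For miR-200a there were 30, 0 and 292 estrus reads and 0, 0 and 1 diestrus reads. miR-205 was present in every library, with 17, 8 and 305 estrus reads and 7, 12 and 16 diestrus reads. miR-200b, miR-141, miR-429 and miR-31 reached 105, 46, 43 and 18 reads in estrus replicate 3, had 13, 19, 4 and 4 in estrus replicate 1, and had at most 1 in any diestrus library. The epithelial miRNAs together had 190 of the 16874 reads of estrus replicate 1, also a larger share than in any diestrus library. Of 4 epithelial miRNAs tested, 0 passed. miR-200a, miR-200c and miR-375 were among the tested only through their estrus levels, so their direction is not counted.

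Of 6 erythrocyte names 3 were measured, at 0.0445% to 2.57% of the reads at estrus and 0.0180% to 0.0791% at diestrus. miR-16a accounted for most of this, with 5, 2 and 579 reads in estrus replicates 1, 2 and 3 and 1, 1 and 2 at diestrus (limma, adjusted p = 0.626). It too was tested only by way of its estrus level. miR-16b had 109 reads in estrus replicate 3 and at most 4 in any other library. miR-486, the marker of the 3 most restricted to red cells, had 8 reads in estrus replicate 3 and at most 2 in any other. The part of these other sources in the levels of miR-223 and miR-142-5p was not tested, and neither was that of depth.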

How the data were processed

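The authors deposited 1 table of normalized counts, a size-factor scaled signal with 1 column per library. Per the submitters' processing notes, the tools were cutadapt, UMI-tools, Bowtie, SAMtools, featureCounts, FastQC and DESeq2; the reference, the settings and any collapsing of molecular indices are not given in the sources used here. Whole reads were recovered by dividing every deposited column by its smallest value above 0; 100% of values came out whole within 0.0001 reads.

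The comparison used limma 3.58.1 (R 4.3.3) on log2(value + 1) with a mean-variance trend, over the 58 miRNAs with a mean of at least 5, with Benjamini-Hochberg adjustment over all 58 and a threshold of 0.05. Each test drew on 232 degrees of freedom, since limma found no spread of variances beyond the trend. The standard errors therefore follow the trend and not each miRNA's own spread. Shares were compared by exact permutation over the 20 assignments (scipy 1.17.1). edgeR 4.0.16 and DESeq2 1.42.0 were run on recovered reads as alternatives only. The fit was tested on simulated data.

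Samples with the same number come from the same animal, per the labels. Their deviations from the phase means correlated at -0.0046, 0.37 and 0.30 in animals 1, 2 and 3, and at -0.41 to 0.34 between animals. The fit did not use the pairing, and a replicate block was an alternative.

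The members, marker lists and tests were chosen with earlier results of these data known. Named beside the members are miR-1246, the 5 miRNAs closest to miR-223 in profile, and listed markers with at least 10 reads in a library; miR-486 and the totals of lists were added after their values were seen. miRNA sequences and seeds were not analysed here.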

Additional observations from a re-analysis of the deposited data

How the results depend on the processing

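Both log2 changes kept their sign in each alternative that gave a value, 18 fits for miR-223 and 17 for miR-142-5p, which a minimum mean of 50 left untested. miR-142-5p was admitted by its diestrus level, so its constant sign is not counted as support. The replicate block left both changes at their values, -1.50 and -3.46 (limma, adjusted p = 0.721 and 0.34), and changed no call. Leaving out 1 sample at a time gave -1.83 to -0.98 for miR-223 and -4.39 to -2.85 for miR-142-5p, and 0 to 1 of the leukocyte miRNAs called, the 1 being miR-142-5p without estrus replicate 2. Over all tested miRNAs the same fits called 0 to 6, again with 6 without estrus replicate 2, and 1 was called for column shares rescaled to the average total and 1 for totals without miR-1246. The cause was not tested. A pseudocount of 10 reduced the change of miR-142-5p to -1.63 and a pseudocount of 0.1 gave -4.49. With no filter the 6 leukocyte miRNAs were all tested and 0 were called (limma, adjusted p = 0.571 to 0.876). The unadjusted call on miR-142-5p was lost without estrus replicate 1, diestrus replicate 1 or diestrus replicate 3. The difference in the share of miR-223 was -1.45 percentage points, -8.45 without miR-1246 in the denominator, and -2.02 to -1.11 without 1 sample. For miR-142-5p it was -0.32, -1.22, and -0.37 to -0.28. For the 6 miRNAs summed it was -1.71, -9.64, and -2.34 to -1.34. Paired by animal, the exact sign-flip test gave p = 0.25 for each share, the smallest that 3 animals allow. Depth limits the 4 lowest miRNAs, for which 3 reads are 0.0111% to 0.0995% of a library.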

Other observations

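The muscle miRNA miR-1 had 7, 0 and 36 reads in estrus replicates 1, 2 and 3 and 5, 0 and 0 in diestrus replicates 1, 2 and 3, at most 0.133% of an estrus and 0.166% of a diestrus library. The liver miRNA miR-122 had 14 reads in estrus replicate 3, 1 in diestrus replicate 3 and 0 in the other libraries. The endothelial miR-126 was not analysed here.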
